A study of Mus musculus with 20 samples.

Results

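The genes described are Mcm2, Mcm3, Mcm4, Mcm5, Mcm6 and Mcm7, which encode the subunits of the replicative helicase, Cdt1 and Cdc6, which encode its loading factors, and Tyms, which encodes thymidylate synthase. They were chosen by symbol from the annotation of the array, which pairs 14 rows of the deposited table with these 9 genes, and all 14 rows had enough values to be tested. They are 9 of 17051 named genes measured. The cells were MLE12, a mouse lung line that resembles type II alveolar epithelium and was immortalised with SV40 large T antigen. They were transfected with Lipofectamine2000 and harvested 12, 24 or 48 h later. One group received NICD1-pIRES-DsRed2, a plasmid for the intracellular domain of Notch1 (NICD1), and the control group of each time received the empty vector. Both RNAs of a time were hybridised together on each of 20 dual-colour Agilent arrays, of which 6 were from 12 h, 7 from 24 h and 7 from 48 h, and the dyes were swapped between arrays. The replicates are described as independent in the design text. NICD1 was overexpressed from a plasmid in 1 cell line whose T antigen is known to bind the retinoblastoma family of cell cycle inhibitors, and no sorting of transfected cells is described in the protocols.

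In G1 phase, the origin recognition complex marks replication origins on DNA, Cdc6 joins it, and Cdt1 brings in the ring of Mcm2 to Mcm7 proteins. This loading step is called licensing. In S phase the loaded rings become active helicases, while geminin and protein degradation restrain Cdt1 so that no origin is licensed again. Genes of this machinery are textbook targets of the E2F transcription factors, which are set free when the retinoblastoma proteins are phosphorylated at the end of G1. Tyms makes the thymidine nucleotide used in DNA synthesis.

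E2F-type letters in the promoters are shown because they are shared by genes that passed the test at 48 h and genes that did not. RefSeq promoter windows (GRCm38.p6, 250 bases before to 50 after the gene start) were listed for 8 of the 9 genes, with Mcm4 not among them, and Mcm7 had 2 windows. They were searched on both strands for TTTCGCGC, TTTGGCGC, TTTCCCGC and TTTGCCGC. At least 1 of these 8-letter motifs was present in 6 of the 9 windows, each of a different gene, against 2.26% of all 32851 windows. Both Mcm7 matches were in the same window, whose start their positions refer to, and its other window held none. Each match is printed below on the strand of the gene with up to 10 bases on either side, and capitals mark the motif as read on either strand.
Mcm6, 110 bases before the start, TTTGGCGC overlapping TTTCGCGC, chr1:128359796-128359825, minus strand: ggcgtatgctTTTGGCGCGAAAagtgcgtg
Mcm6, 47 bases before the start, chr1:128359735-128359762, minus strand: attggacgggTTTGGCGCgaagtagctc
Mcm5, 153 bases before the start, TTTCGCGC overlapping TTTGGCGC, chr8:75109346-75109375, plus strand: cgccaagaacTTTCGCGCCAAAacgtccag
Cdt1, base 33 after the start, chr8:122568037-122568064, plus strand: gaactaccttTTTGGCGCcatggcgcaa
Mcm3, base 20 after the start, chr1:20820276-20820303, minus strand: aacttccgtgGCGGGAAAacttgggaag
Mcm3, base 39 after the start, chr1:20820263-20820284, minus strand: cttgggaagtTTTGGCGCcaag
Mcm7, 165 bases before the start, chr5:138172031-138172058, minus strand: atttcgaaccGCGGGAAAcagggtgtcc
Mcm7, base 17 after the start, chr5:138171850-138171877, minus strand: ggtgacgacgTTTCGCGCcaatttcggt
Cdc6, 138 bases before the start, chr11:98908003-98908030, plus strand: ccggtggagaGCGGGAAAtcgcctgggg
The letters of Mcm5 and of the upstream match of Mcm6 are the same overlapping pair of motifs. In Mcm2 and Tyms none of the 4 motifs was found in the window. GTGGGAA, the core letters bound by the Notch partner RBPJ, were in 1 of the 9 windows, that of Mcm3, against 6.38% of all windows. A match is a description of the letters and not a measured binding site.

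Values are log2 ratios of NICD1 over empty vector, so a positive value means more RNA with NICD1. They carry no level of either RNA, and levels were not compared between genes or times. In bulk RNA, fewer cells of a kind and less RNA per cell cannot be told apart. The direct Notch target Nrarp was between 1.31 and 3.24 on the 20 arrays after 12 h replicate 3 and 48 h replicate 3 had been turned by multiplying by -1. The direction of the columns rests on this gene. Hey1, another direct Notch target, was at -0.44 on the turned 12 h replicate 3 and between -0.09 and 3.42 on the other 19. At 48 h, replicates 5, 6 and 7 stood apart. The correlations across genes within this trio were 0.653 to 0.686, and those within replicates 1 to 4 were 0.102 to 0.322. Those between the trio and replicates 1 to 4 were 0.0505 to 0.399. The SD over genes was 0.705 to 0.813 on these 3 arrays and 0.467 to 0.641 on the other 17. Calls of the 9 genes at 48 h are therefore also given without them.

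At 12 and 24 h none of the 9 genes passed the test at an adjusted p under 0.05. The share of all genes that passed was 0.282% at 12 h and 1.67% at 24 h. At 12 h, 8 of the 9 fitted values were below 0, between -0.28 and -0.02, and Tyms was at 0.07 ± 0.11 (SE, n = 6). Mcm3 at -0.21 ± 0.09 and Cdc6 at -0.21 ± 0.09 had an unadjusted limma p under the threshold, 0.0397 and 0.0388, and an adjusted p of 0.918 each. Of all genes 5.36% had such an unadjusted p at 12 h. Cdc6 was below 0 on all 6 arrays at 12 h, the lowest being the turned replicate 3 at -0.63. Without the 2 turned arrays Cdc6 was at -0.13. In that fit 0 of the 9 genes had an unadjusted p under the threshold at 12 h, against 5.1% of all genes. At 24 h the 9 values lay between -0.13 and 0.03, and the lowest adjusted p was 0.868. Of the 9 genes 0 had an unadjusted p under the threshold at 24 h, against 8.35% of all genes. Nrarp, whose sign settled the direction of the arrays, passed at both times.

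**Figure D1:**
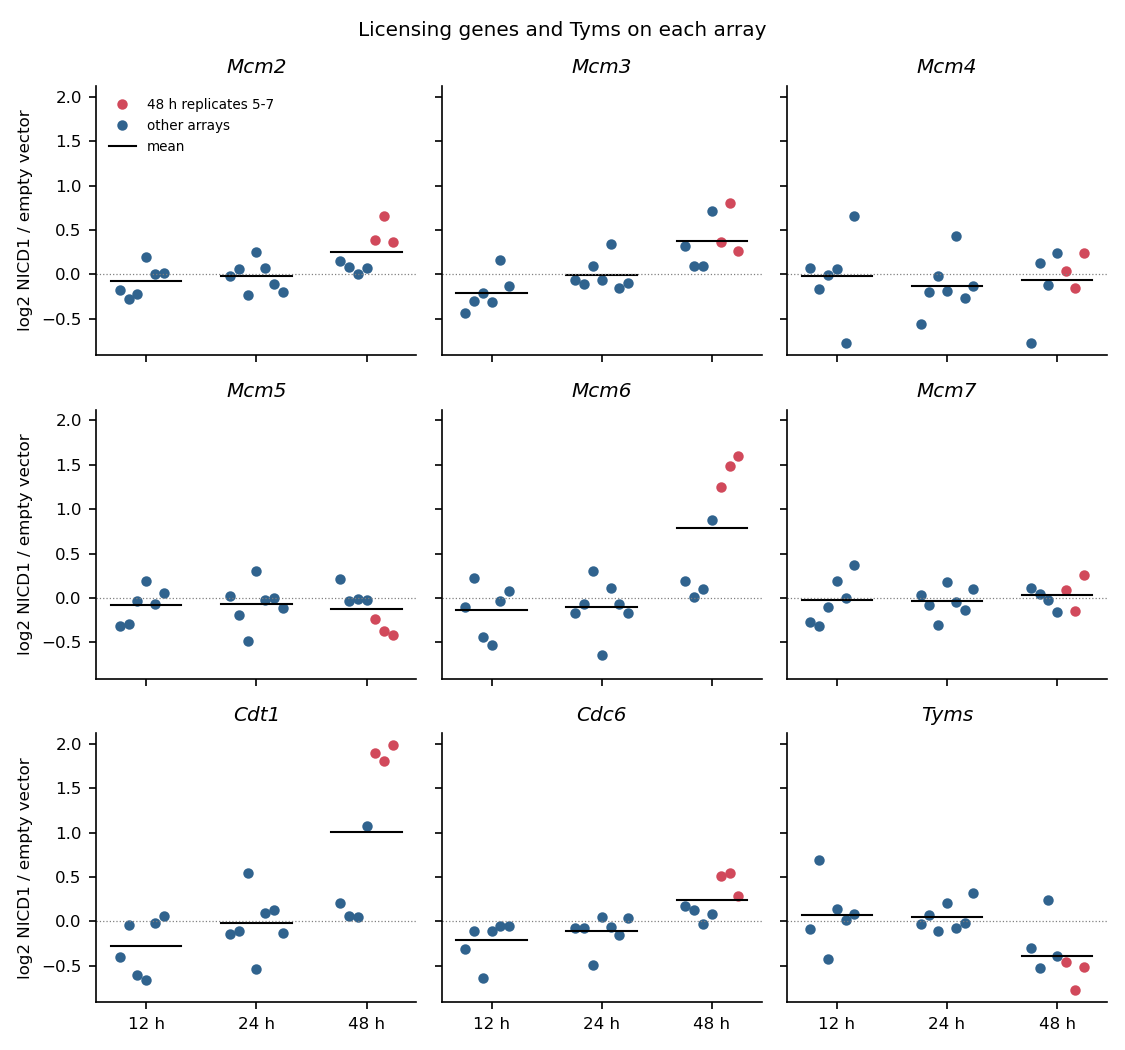
Log2 ratio of NICD1 over empty vector (vertical axis) of each gene on each array, by hours after transfection (horizontal axis), with a bar at the mean of the arrays. Cdt1 and Mcm6 reach 1.81 to 1.98 and 1.25 to 1.60 on 48 h replicates 5 to 7 (red), and at 12 and 24 h all values lie between -0.77 and 0.69.

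At 48 h, 4 of the 9 genes were higher with NICD1, Cdt1, Mcm6, Mcm3 and Mcm2, and 1, Tyms, was lower. Of all genes, 14.0% were higher and 13.8% lower at this time. Mcm4, Mcm5, Mcm7 and Cdc6 did not pass. The median over the 9 genes was 0.24, and over all genes it was -0.01. The fitted values of the 6 helicase subunit genes ranged from -0.13 to 0.79, and they are described one by one.

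Cdt1 (Entrez Gene 67177, chromosome 8), the loading factor that geminin restrains, had the largest value. Its 7 arrays at 48 h had a lowest value of 0.05, a median of 1.07 and a highest of 1.98. Replicates 5, 6 and 7 were at 1.90, 1.81 and 1.98 and replicate 4 at 1.07, while replicates 1, 2 and 3 were at 0.21, 0.07 and 0.05. All 7 were above 0, and replicates 1 to 3 lay inside the range of the 24 h arrays, -0.54 to 0.54. The fitted value was 1.02 ± 0.22 (SE, n = 7; adjusted p = 0.00238), a 2.02-fold change. Without replicates 5 to 7 it was 0.35 ± 0.18 and did not pass (adjusted p = 0.291).

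Cdc6 (23834, chromosome 11), the ATPase that recruits the helicase together with the origin complex, had a lowest value of -0.03, a median of 0.18 and a highest of 0.55 at 48 h. It was above 0 on 6 of 7 arrays, and replicates 5, 6 and 7, at 0.51, 0.55 and 0.29, were the 3 highest. Its fitted value of 0.24 ± 0.09 missed the threshold (adjusted p = 0.0502). It passed without the 2 turned arrays, at 0.29 (adjusted p = 0.0138), and was at 0.09 ± 0.10 without replicates 5 to 7 (adjusted p = 0.657).

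Among the helicase subunits, Mcm6 (17219, chromosome 1) had the largest value. Its arrays at 48 h had a lowest value of 0.01, a median of 0.87 and a highest of 1.60. Replicates 5, 6 and 7 were at 1.25, 1.48 and 1.60, replicate 4 at 0.87, and replicates 1, 2 and 3 at 0.19, 0.01 and 0.10. This is the same split of the arrays as for Cdt1. The fitted value was 0.79 ± 0.18 (SE, n = 7; adjusted p = 0.00279), a 1.73-fold change. Without replicates 5 to 7 Mcm6 was at 0.29 ± 0.15 (adjusted p = 0.317).

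Mcm3 (17215, chromosome 1) ranged from 0.10 to 0.80 at 48 h with a median of 0.32, and all 7 arrays were above 0. Its second highest array was replicate 4, at 0.71, and replicates 5 to 7, at 0.36, 0.80 and 0.26, overlapped the others. The fitted value was 0.39 ± 0.09 (SE, n = 7; adjusted p = 0.00281), and without replicates 5 to 7 it was 0.31 ± 0.11 (adjusted p = 0.125). Of the 5 genes that passed, this one moved least in value when those arrays were left out. The value is a mean over 2 rows, which moved in opposite directions. Row 29124 went from 0.67 to 0.27 and row 42189 from 0.12 to 0.35. Row 42189 was below 0 on 3 of the 7 arrays. Mcm2 (17216, chromosome 6) had a median of 0.14 and a range of 0.01 to 0.66, with all 7 arrays above 0 and replicates 5, 6 and 7 highest at 0.39, 0.66 and 0.36. Its fitted value of 0.24 ± 0.09 had an adjusted p of 0.0426, and the call was lost in 9 of the 20 fits that left out 1 array. The adjusted p was 0.0995 to 0.208 without replicate 5, 6 or 7, and just over the threshold in the other 6, without 12 h replicate 5 or 6 or 24 h replicate 1, 2, 5 or 6. It was also lost in 7 of 14 other alternatives. Without all 3, Mcm2 was at 0.08 ± 0.09 (adjusted p = 0.700).

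The other helicase subunits did not pass at 48 h. Mcm5 (17218, chromosome 8) had arrays from -0.42 to 0.21 with a median of -0.03, and replicates 5, 6 and 7, at -0.24, -0.37 and -0.42, were the 3 lowest. Its fitted value was -0.13 ± 0.09 (SE, n = 7; adjusted p = 0.301), and 0.04 ± 0.10 without those arrays. On the 3 arrays where Mcm6 was highest, Mcm5 was below 0. Their promoter windows hold the same overlapping E2F-type letters, as printed above. Mcm7 (17220, chromosome 5) stayed between -0.15 and 0.26 on the 7 arrays and was fitted at 0.01 ± 0.08 (adjusted p = 0.925). Mcm4 (17217, chromosome 16) was fitted at -0.06 ± 0.14 (adjusted p = 0.823). This is a mean over rows of opposite sign, 1 of which lacks values on some arrays, given below.

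Tyms (22171, chromosome 5), which supplies thymidine nucleotides and is no part of the licensing machinery, was lower at 48 h. Its arrays had a lowest value of -0.77, a median of -0.46 and a highest of 0.24. Replicate 3, 1 of the turned arrays, was the only 1 above 0, and replicates 5 to 7 at -0.46, -0.77 and -0.52 overlapped replicate 2 at -0.53. The fitted value was -0.41 ± 0.10 (SE, n = 7; adjusted p = 0.00445), and -0.25 ± 0.12 without replicates 5 to 7 (adjusted p = 0.265).

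Without replicates 5, 6 and 7 none of the 9 genes passed at 48 h, when 3.69% of all genes did. In that limma fit Mcm3 alone had an unadjusted p under the threshold, as did 19.7% of all genes. With the 48 h arrays fitted alone none of the 9 passed either, when 1.37% of all genes did. Of all genes 26.9% had an unadjusted p under the threshold in that fit, and 4 of the 9 did, Mcm3, Mcm6, Cdt1 and Tyms. Their fitted values hardly moved in that fit, with Cdt1 at 1.01 ± 0.30 (adjusted p = 0.104) and Mcm6 at 0.79 ± 0.24 (adjusted p = 0.106), while the standard errors grew. The signs of the 5 genes that had passed were the same in both fits. What sets replicates 5 to 7 apart was not tested.

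**Figure D2:**
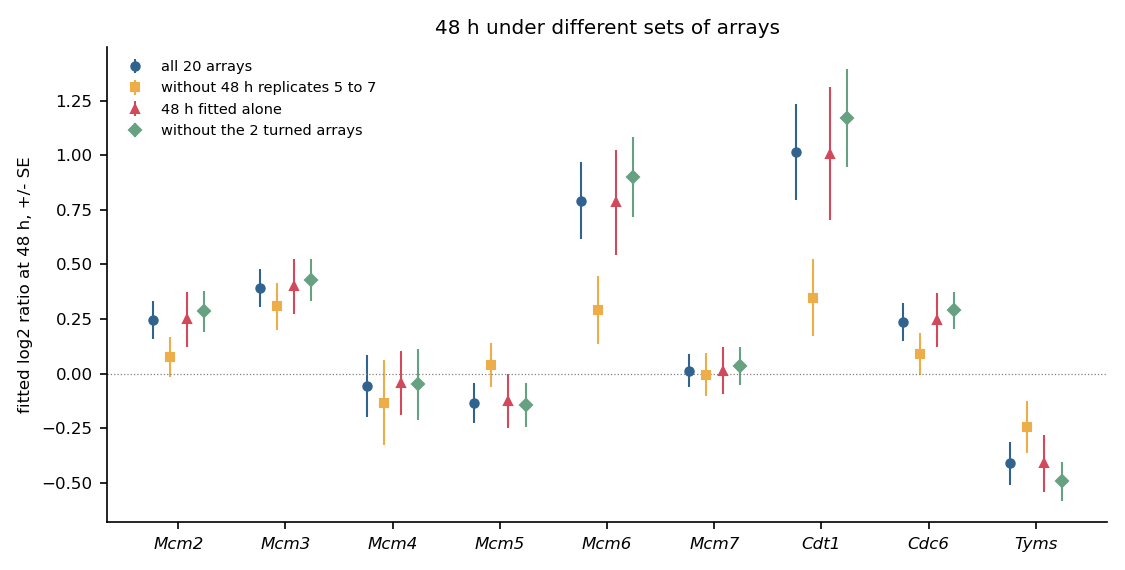
Fitted log2 ratio at 48 h with its standard error (vertical axis) for each gene (horizontal axis) in 4 fits: all 20 arrays, without 48 h replicates 5 to 7, the 48 h arrays alone, and without the 2 turned arrays. Cdt1 falls from 1.02 to 0.35 and Mcm6 from 0.79 to 0.29 when replicates 5 to 7 are left out, and Mcm3 goes from 0.39 to 0.31.

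Of the 9 genes, 4 were read by more than 1 row, and their rows had unlike values at 48 h. Rows are named by their number in the deposited table, and their positions in the transcripts were not known here. For Mcm4, row 20001 was at 1.22, 0.93 and 1.05 on replicates 5, 6 and 7, and its other 4 arrays at 48 h spanned -0.13 to 0.37. Row 38460 of the same gene was at -1.15, -1.25 and -0.58 on those replicates and had values on 5 of the 7 arrays. On 48 h replicates 3 and 4 the gene value of Mcm4 is therefore row 20001 alone. The same holds for 12 h replicate 1 and 24 h replicates 3, 4 and 7. Fitted singly, row 20001 was at 0.55 ± 0.13 (SE, n = 7; adjusted p = 0.00493) and row 38460 at -0.96 ± 0.37 (n = 5; adjusted p = 0.0787). Row 38460 was also the more scattered at 12 h, from -1.54 to 1.34, against -0.29 to 0.08 for row 20001.

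For Cdc6, row 13474 rose by 0.49 ± 0.13 (SE, n = 7; adjusted p = 0.0105), and row 22292 was at -0.02 ± 0.09. On replicates 5, 6 and 7 the first was at 1.16, 1.01 and 0.69 and the second at -0.13, 0.09 and -0.11. For Mcm3, row 29124 rose by 0.67 ± 0.13 (adjusted p = 0.00177), and row 42189 was at 0.12 ± 0.14 (adjusted p = 0.613). Row 29124 was at 1.19, 1.37 and 1.01 on replicates 5 to 7, and row 42189 at -0.46, 0.24 and -0.49. For Tyms, rows 12590 and 13405 were lower, at -0.56 ± 0.10 and -0.54 ± 0.10, and row 10950 was at -0.14 ± 0.23 with arrays from -0.95 to 0.69. Thus each of Mcm3, Mcm4 and Cdc6 had 1 row that was high on replicates 5 to 7 and 1 that was not.

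Of the 14 rows 7 passed at 48 h, when 24.3% of all rows tested did. Without replicates 5 to 7 none of the 14 passed, when 2.29% of all rows did. In that fit row 20001 of Mcm4 was at 0.15 (adjusted p = 0.335), row 13474 of Cdc6 at 0.15 (adjusted p = 0.550), row 29124 of Mcm3 at 0.27 (adjusted p = 0.143), and rows 12590 and 13405 of Tyms at -0.33 and -0.35 (adjusted p = 0.0808 and 0.0764). The single rows of Cdt1 and Mcm6 passed in the row fit of all 20 arrays, and the row of Mcm2 missed (adjusted p = 0.0627). Without replicates 5 to 7 the adjusted p was 0.330 for the row of Cdt1, 0.358 for Mcm6 and 0.740 for Mcm2. The difference between rows of 1 gene over the 48 h arrays was compared for 6 pairs with an exact two-sided sign-flip permutation test, chosen after the values were seen. No pair passed, with adjusted p from 0.188 to 0.719. The smallest exact p that 7 arrays allow is 0.0156, so a pair alone could not pass after adjustment over 6 pairs. The outcome thus does not show that the rows are alike. For Mcm4 the difference was above 0 on 5 of 5 arrays, with a mean of 1.70 and an exact p of 0.0625, the smallest that 5 arrays allow. The spread between rows was also wider on replicates 5 to 7 beyond these genes. For this the first and second row of each of 7028 genes with several rows were compared. Their median absolute difference was 0.500 to 0.610 on 48 h replicates 5 to 7 and 0.213 to 0.477 on the other 17 arrays. The part of this spread in the values of the licensing genes was not tested.

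**Figure D3:**
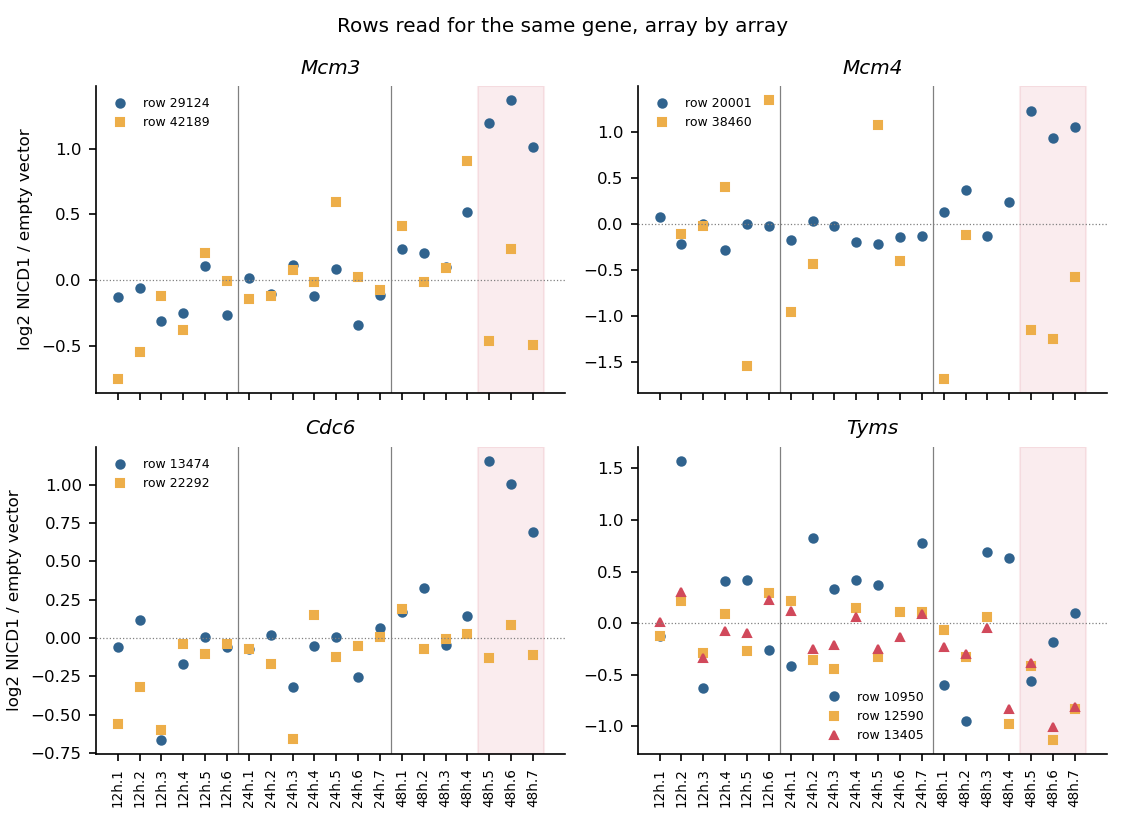
Log2 ratio of NICD1 over empty vector (vertical axis) of each row of Mcm3, Mcm4, Cdc6 and Tyms on each array (horizontal axis, hour and replicate), with 48 h replicates 5 to 7 shaded. On the shaded arrays row 20001 of Mcm4 is at 0.93 to 1.22 and row 38460 at -1.25 to -0.58.

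The difference between times was tested in the same fit. A ratio of 2 RNAs may change with time because of the one or the other. From 12 to 48 h, 5 of the 9 genes changed, when 9.17% of all genes did. Cdt1 rose by 1.29 ± 0.32 (SE; adjusted p = 0.0207), Mcm6 by 0.93 ± 0.26 (adjusted p = 0.0321), Mcm3 by 0.60 ± 0.13 (adjusted p = 0.00944) and Cdc6 by 0.44 ± 0.13 (adjusted p = 0.0370), and Tyms fell by 0.48 ± 0.14 (adjusted p = 0.0429). Cdc6 thus passed between times without passing at either time, its value having been -0.21 at 12 h and 0.24 at 48 h. With the 2 turned columns as deposited, Cdc6 was at 0.0033 at 12 h and its change was 0.25 (adjusted p = 0.319). When 1 array was left out, the call was lost in 17 of 20 fits for Tyms (adjusted p from 0.0109 to 0.104 over the 20), 9 for Cdc6, 8 for Mcm6, 1 for Cdt1 and 0 for Mcm3. Without replicates 5 to 7 none of these 5 passed, Mcm3 being closest at 0.52 ± 0.14 (adjusted p = 0.0817). In that fit 4 of the 9 genes had an unadjusted p under the threshold, against 16.2% of all genes.

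From 24 to 48 h none of the 9 passed, when 2.05% of all genes did. An unadjusted limma p under the threshold was found for 6 of the 9, against 24.4% of all genes. Nearest to passing were Mcm6 at 0.89 ± 0.25 (adjusted p = 0.0578) and Cdt1 at 1.03 ± 0.31 (adjusted p = 0.0663). Between 12 and 24 h none passed, when 0.897% of all genes did. There 0 had an unadjusted p under the threshold, against 5.69% of all genes. The size of the change from 24 to 48 h was thus close to the whole value at 48 h for both genes.

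The wider replication machinery was described by 76 genes in 7 role groups. None passed at 12 or 24 h, when 3 (3.95%) and 6 (7.89%) had an unadjusted p under the threshold, against 5.36% and 8.35% of all genes. At 48 h, 16 were higher and 24 lower, against 14.0% and 13.8% of all genes, with a median of -0.06 against -0.01. Without replicates 5 to 7 only Rpa1, a single-strand binding protein gene named after its value was seen, passed (0.67, adjusted p = 0.00534), and 20 (26.3%) had an unadjusted p under the threshold, against 19.7% of all genes. With 48 h fitted alone none passed and 31 (40.8%) had an unadjusted p under the threshold, against 26.9% of all genes. All other 48 h calls given below for this list were therefore lost in both fits. From 12 to 48 h, Rfc1, Rpa1, Cad and E2f8 rose and Orc4 and Prim1 fell. No other gene of the 76 passed for that difference, when 9.17% of all genes did. Cad (adjusted p = 0.0494) and Rfc1 (adjusted p = 0.0459) were near the threshold. From 24 to 48 h 1 of the 76 passed, Mcm10, which rose by 0.47 (adjusted p = 0.0480), when 2.05% of all genes did.

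All 6 origin recognition genes, whose products mark the sites where the helicase is loaded, were lower at 48 h, when 13.8% of all genes were. Their values lay between -0.58 and -0.38 with a median of -0.54. Orc6 was at -0.58 ± 0.11 (SE, n = 7; adjusted p = 0.00124) and below 0 on 7 of 7 arrays. Orc4 was at -0.57 ± 0.09 (adjusted p = 0.000418) and Orc1, an ATPase subunit gene, at -0.54 ± 0.12, each below 0 on 7 of 7 arrays. Orc3 was at -0.53 ± 0.13 and below 0 on 5 of 7. The origin genes and the loading factor Cdt1 thus had opposite signs at 48 h. Without replicates 5 to 7 all 6 were still below 0, with a median of -0.25. None passed in that fit, Orc4 being nearest at -0.35 (adjusted p = 0.0519). An unadjusted p under the threshold was found for 4 of the 6, against 19.7% of all genes.

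Of 8 genes of licensing control 2 were higher and 2 lower, against 14.0% and 13.8% of all genes. Mcmbp, whose product binds Mcm complexes, was higher at 0.28 ± 0.10 (adjusted p = 0.0441) and Cul4a, a scaffold of the ubiquitin ligase that degrades Cdt1 in S phase, at 0.18 ± 0.06. Rbx1, the RING subunit of such ligases, was lower at -0.37 ± 0.08 and Skp2, another route to Cdt1 degradation, at -0.35 ± 0.11. Gmnn, which encodes geminin, was at -0.24 ± 0.11 and did not pass (adjusted p = 0.115). None of these 5 passed without replicates 5 to 7, and there Gmnn was at -0.01 and Mcmbp at 0.01. Of the other Mcm genes, which are not part of the licensed ring, Mcm9 was lower at -0.42 ± 0.11. Mcm8 (0.16) and Mcm10 (0.18) did not pass at 48 h.

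Among 11 genes that turn the loaded ring into an active helicase, 1 was higher and 4 lower, against 14.0% and 13.8% of all genes. The 4 lower genes were Gins2 (-0.54 ± 0.18), Gins4 (-0.39 ± 0.10), Gins3 (-0.33 ± 0.08) and Gins1 (-0.22 ± 0.08), which encode the whole GINS complex, a partner of the Mcm ring at the fork. Ticrr, which encodes treslin, was higher at 0.38 ± 0.11. Gins2 was below 0 on 4 of 7 arrays and was fitted at 0.02 without replicates 5 to 7.

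Genes of the fork and its polymerases were split, with 8 of 23 higher and 6 lower, against 14.0% and 13.8% of all genes. The largest values were Rpa3 at -0.78 ± 0.20, Rfc3, a clamp loader subunit gene, at -0.77 ± 0.27, Prim1, the primase gene, at -0.72 ± 0.14 and Pola1, the polymerase alpha gene, at 0.69 ± 0.19. Subunits of 1 complex differed in sign: Rpa1 was higher at 0.54 ± 0.10 and Rpa3 lower, and Rfc1 was higher at 0.62 ± 0.12 and Rfc3 lower. With replicates 5 to 7 left out, Rfc1 was at 0.24 and Rfc3 at 0.08, of the same sign, while Rpa1 was at 0.67 and Rpa3 at -0.16. Prim1 was below 0 on 7 of 7 arrays, and the other 3 of those 4 genes had arrays on both sides of 0.

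Of 9 nucleotide supply genes, the group nearest to Tyms in function, 1 was higher and 2 lower, against 14.0% and 13.8% of all genes. Cad, of pyrimidine synthesis, was higher at 0.58 ± 0.10 and above 0 on 7 of 7 arrays. Dtymk, the kinase that acts on the product of Tyms, was lower at -0.49 ± 0.13, and Shmt1, of the folate cycle that serves Tyms, at -0.37 ± 0.12. Of 16 genes of G1/S control 4 were higher and 3 lower, against the same shares of all genes. Rb1, the retinoblastoma gene, was higher at 0.74 ± 0.16, E2f2 at 0.59 ± 0.17 and the repressor gene E2f8 at 0.51 ± 0.11, while the cyclin gene Ccne2 was lower at -0.72 ± 0.20. Rb1 was read by 11 rows and was above 0 on 7 of 7 arrays.

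**Figure D4:**
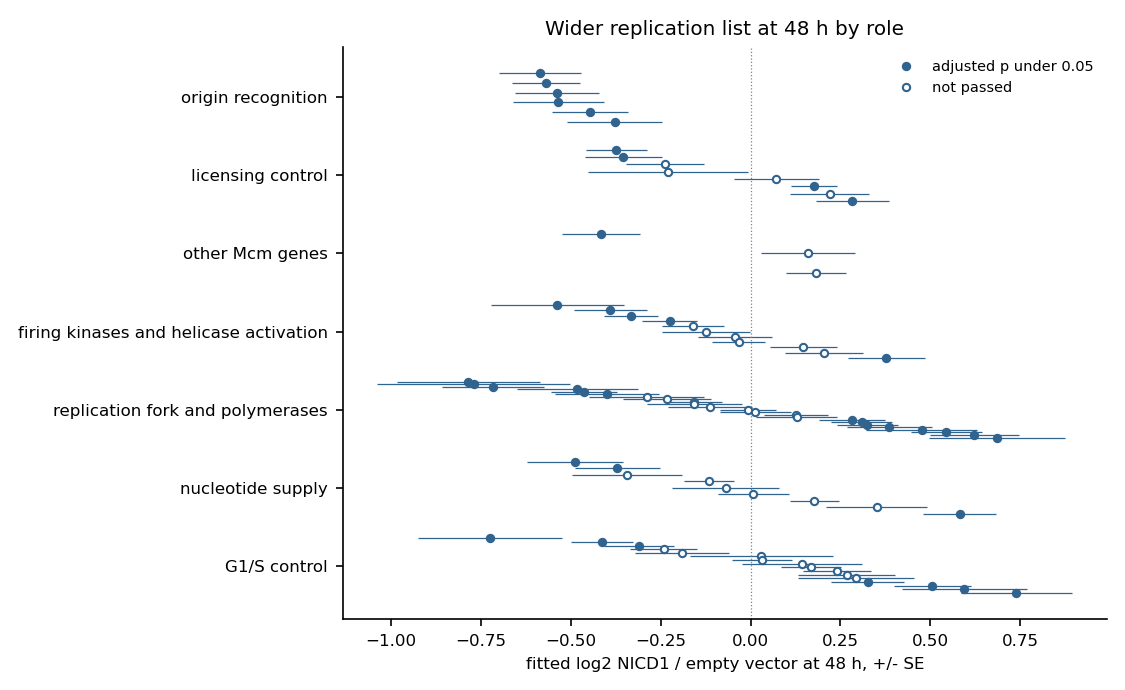
Fitted log2 ratio at 48 h with its standard error (horizontal axis) of each of 76 replication genes, by role group (vertical axis), with filled points where the adjusted p was under 0.05. The 6 origin recognition genes all lie between -0.58 and -0.38, and the other groups have points on both sides of 0.

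Markers were read beside these genes. The proliferation marker Mki67 was higher at 48 h at 1.10 ± 0.16 and passed also without replicates 5 to 7 (0.82, adjusted p = 0.0270). Pcna, the sliding clamp of the fork, was lower at -0.48 ± 0.17 with 3 of 7 arrays above 0 and at 0.04 without those replicates, and Top2a was at -0.06 ± 0.12. Proliferation markers thus had values of both signs. Of 9 alveolar type II markers 6 were measured, and Abca3 (0.43 ± 0.11) and Nkx2-1 (0.32 ± 0.12) were higher at 48 h. Both calls were lost without replicates 5 to 7 (0.31, adjusted p = 0.214, and 0.28, adjusted p = 0.335). Sftpb (0.29), Lamp3 (0.19), Slc34a2 (0.12) and Sftpc (-0.38) did not pass at 48 h. Ratios cannot show whether a marker is expressed, so the labelled cell type was not checked by level. Of 5 fibroblast markers Col1a1 was higher at 1.10 ± 0.15 and passed also without replicates 5 to 7 (0.80, adjusted p = 0.0158). Pdgfra (0.36), Col1a2 (0.33), Dcn (-0.02) and Col3a1 (-0.53) did not pass at 48 h. None of 4 endothelial or 3 leukocyte markers passed. The part of these markers in the licensing values was not tested.

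The genes most like the mean of Mcm2 to Mcm7 over the 20 arrays were listed by Pearson correlation with the dye effect taken off. They came from 14373 genes with a value on every array, the 9 genes described being left out. Mcm2 to Mcm7 did not share 1 pattern, with pair correlations from -0.634 (Mcm5 and Mcm6) to 0.748 (Mcm3 and Mcm6). The 5 highest were Cdc42ep1 (0.962), Samd14 (0.915), Srebf1 (0.915), Fam117b (0.900) and Sik3 (0.898), and the 3 lowest Rnf141 (-0.946), Angptl6 (-0.920) and Cdpf1 (-0.916). None of these 8 belongs to the replication list. Their fitted values at 48 h were between 0.40 and 0.89 for the first 5 and between -0.53 and -0.40 for the others. The arrays share times, and 48 h replicates 5 to 7 stand apart in both series, so the correlations are given as a ranking only.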

How the data were processed

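The authors deposited log2 ratios per array row, as judged from the values. The submitters' processing notes name limma without a version, and the background correction and normalization of the deposited values are not given here. The direction of each ratio is not stated either. Ratios were read as NICD1 over empty vector, and 12 h replicate 3 and 48 h replicate 3 were multiplied by -1 because Nrarp, at -1.93 and -1.58 as deposited, was above 0 on the other 18. Each array had 37041 to 40068 values, 14.2% of the table was missing, and the number of arrays limits the precision.

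A gene was the mean of its rows with 1 annotated symbol and a value on 4 or more arrays per time. A limma 3.58.1 model (R 4.3.3) had 3 time coefficients and a dye term over 20 arrays, which share 1 variance per gene. The p-values were moderated, two-sided and Benjamini-Hochberg adjusted over 17051 genes, or over 37340 rows in the row fit. The code was tested on simulated data. Same-numbered arrays were little correlated (19 correlations of deviations from -0.132 to 0.139, with 1 over 0.1), and the main fit had no replicate term. An effect common to both RNAs of an array cancels in the ratio, so these correlations do not settle whether the replicates were paired.

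All 9 genes are named. Of each role group, genes with an adjusted p under 0.05 and the largest absolute values were named, at most 4 a time, plus Gmnn and Mcmbp. The members and lists were chosen with earlier results of these data known. Promoter letters come from RefSeq.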

Additional observations from a re-analysis of the deposited data

Results flagged for a closer look

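Of 27 sets of arrays, 9 genes at 3 times, 2 held an array far from the others by Dixon's criterion, which chance meets in about 1 of 20 sets. Mcm4 on 48 h replicate 1 was at -0.77, with the next lowest array at -0.16, and on that array row 38460 was at -1.68 and row 20001 at 0.13. Cdc6 on 24 h replicate 3 was at -0.49, with the next lowest at -0.15, and both its rows were low there, at -0.32 and -0.66.

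The ratio differed between 12 and 48 h for 5 genes in the limma test of the difference. It was higher at 48 h by 1.29 for Cdt1, 0.93 for Mcm6, 0.60 for Mcm3 and 0.44 for Cdc6, and for Tyms it was lower at 48 h, with a difference of -0.48.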

How the results depend on the processing

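No licensing gene passed at 12 h, at 24 h or between them under any alternative run. Of the 9 genes 5 passed at 48 h, and 4 to 6 when single arrays were left out. With each time fitted alone 0 passed, without 48 h replicates 5 to 7 0, and with array quality weights 1. In the wider list 40 passed at 48 h, 0 with each time fitted alone, 1 without replicates 5 to 7, 26 with arrays scaled to a common spread, 26 with quantile normalization and 13 with array weights, and 21 to 42 when single arrays were left out, the lowest 3 being without 48 h replicate 5 (24), 6 (21) or 7 (24). For 48 against 12 h 5 genes passed, but 1 with the turned columns as deposited, 0 without replicates 5 to 7, 1 with array weights, 1 with the replicate block and 1 to 5 without single arrays, with 2 or 3 without any 1 of the 12 h arrays, 2 without 48 h replicate 4, 5 or 7 and 1 without replicate 6. For 48 against 24 h 0 passed, but 5 without the turned arrays, 5 with rows that had values on all 20 arrays and 0 to 5 without single arrays (48 h replicate 3 left out gives 5, replicate 2 3 and replicate 1 2). With 48 h replicates 1 to 4 left out 6 passed, a set chosen for its values that tests nothing. Mcm4 changed sign with its row on all 20 arrays or row 20001 alone, to 0.55 at 48 h, and to 0.62 for 48 against 12 h with rows on all 20 arrays, since that leaves out row 38460. Other causes were not tested. The main fit had no replicate term, and under the replicate block Mcm2 at 48 h missed (adjusted p = 0.0588) and Cdc6 at 48 h passed (adjusted p = 0.0340). A fit of single rows without replicates 5 to 7, chosen after seeing the data, lost all 7 row calls. Of 1877 values of single genes or rows under alternatives, 81 changed sign while passing in neither fit and were not counted as reversed. Counts over all genes ranged from 0 to 83 at 12 h, 181 to 570 at 24 h, 234 to 6445 at 48 h, 283 to 5457 for 48 against 12 h and 2 to 5357 for 48 against 24 h. At 48 h 50.4% of calls were higher, and 28.6% with that time fitted alone. Signal over background was not analysed here.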
